A study of Mus musculus with 12 samples.

Results

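miR-210 is one miRNA gene of the mouse, and its reads were taken from small RNA libraries of the retina as every deposited row whose precursor is named mmu-mir-210. These rows hold 2733 of the 482403 entries of a sequence in a library, 521 of 102062 distinct sequences, and 131848 of the 62878432 counted reads, on 1 of 1532 precursors and 2 of 2153 mature arms. No mir-210 row was shared with another precursor, so the reads needed no division between genes. The rows were selected by the precursor's name and by no measured value. The label "hypoxia-induced" is background: oxygen was not measured in these samples.

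The mice carried the db/db genotype, a loss of the leptin receptor that leads to obesity and diabetes, on a KsJ background (strain label C57BL/KsJ-db/db, in which the number before BL goes up from sample to sample). 6 libraries were labelled model and are taken as db/db mice not given the drug, and 6 came from db/db mice treated with Keluoxin, a Chinese herbal capsule. Dose, duration, age and sex were not given in the labels, no non-diabetic retina was analysed here, and the extraction text names an exosome pellet while the source label names the retina. Whether each sample is its own animal is not stated, so a p-value here speaks of the spread between samples, part of which may be technical. Values with ± are means and SDs over the libraries of a group, n = 6 each.

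miR-210 is the miRNA most regularly induced when cells run short of oxygen. Hypoxia-inducible factor 1 binds near its gene and raises its transcription, and the mature strand lowers the messages of proteins of mitochondrial respiration and of the ephrin-A3 signal to blood vessels. The retina has one of the highest oxygen demands of any tissue, and loss of its capillaries in diabetes can leave it short of oxygen.

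The hairpin listed in the deposited files is identical to the RefSeq Mir210 hairpin of GRCm38.p6 and lies at chr7:141221384-141221493 on the minus strand. It overlaps no other RefSeq gene. Rassf7 is the nearest gene on one side, 2726 bases away, and Gm51460 on the other, 6713 bases away. The hairpin is shown with its 2 mature arms in capitals, and the mature miRNAs below it with the seed (bases 2 to 8, which pair with target messages) in capitals; miR-210-5p spans bases 28 to 49 of the hairpin and miR-210-3p bases 66 to 87.
mir-210 hairpin: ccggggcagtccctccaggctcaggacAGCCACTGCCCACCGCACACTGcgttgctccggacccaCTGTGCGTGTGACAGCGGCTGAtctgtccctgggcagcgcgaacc
miR-210-3p: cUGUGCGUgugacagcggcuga
miR-210-5p: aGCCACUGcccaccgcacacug

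Neither seed belongs to a family in the mouse. UGUGCGU, the seed of miR-210-3p, occurred in 1 of 1679 mature miRNAs in the RefSeq table, and GCCACUG, the seed of miR-210-5p, also in 1.

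The 5 most frequent reads of the 3p arm and the 3 most frequent of the 5p arm show how far the sequenced molecules keep to these references. Capitals mark the first base that departs from the hairpin and any base after it.
3p read 1: ctgtgcgtgtgacagcggctga
3p read 2: ctgtgcgtgtgacagcggctgaA
3p read 3: ctgtgcgtgtgacagcggctgT
3p read 4: ctgtgcgtgtgacagcggctgaAT
3p read 5: ctgtgcgtgtgacagcggctgat
5p read 1: agccactgcccaccgcacactgT
5p read 2: agccactgcccaccgcacactg
5p read 3: agccactgcccaccgcacactgc

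Over all libraries, 3p read 1 is the RefSeq mature sequence and held 24708 reads, 19.0% of the arm. 3p read 2 adds an A that the hairpin does not encode (17075 reads, 13.2%), and 3p read 3 has a T in place of the last base (12053 reads, 9.29%). 3p read 4 adds A and then T (9993 reads, 7.70%), and 3p read 5 is 1 base longer with the encoded base, a T (8443 reads, 6.51%). The T of 3p read 4 may be that same encoded base after an added A. All 5 start at the same base and carry the same seed, and they differ in their last bases alone.

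Depth ran from 1933375 counted reads in Keluoxin replicate 5 to 7892147 in model replicate 3, and mir-210 gave from 4302 to 16737 of them. Of the arms tested, 138 of 813 (17.0%) passed adjusted p under 0.05 between the groups, 74 higher (9.10%) and 64 lower (7.87%) in Keluoxin, and among arms of annotated precursors 69 of 513 (13.5%). In every library, photoreceptor and neuronal miRNAs held the largest sums of the marker lists: 5 such miRNAs summed to between 459900 and 541400 CPM in model and between 270400 and 495600 in Keluoxin, and 1 of them, miR-182-5p, fell (log2 fold change −0.61, adjusted p = 0.0203, edgeR). Another, miR-96-5p, had a log2 fold change of 0.28 (adjusted p = 0.0515).

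The level of miR-210-3p, the strand that enters silencing complexes, did not differ between the groups beyond the spread of the libraries. On the scale of normalized CPM (counts per 1000000 reads after TMM scaling of library size), model replicates 1 to 6 stood at 1969, 1461, 2204, 1911, 2212 and 2962, and Keluoxin replicates 1 to 6 at 2207, 2109, 2259, 1825, 2233 and 1901. The ranges overlapped, with every Keluoxin library inside the model range. The means were 2119 ± 495 CPM in model and 2089 ± 184 in Keluoxin, a log2 fold change of −0.02 (SE 0.14, edgeR quasi-likelihood test, adjusted p = 0.920). The 95% interval of that change ran from −0.34 to 0.29, or from 0.792 to 1.23 of the model level. Changes inside this interval are not resolved by these libraries. In bulk tissue, fewer cells of a type and less RNA per cell cannot be told apart.

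The model libraries were more spread than the Keluoxin libraries. Their highest stood 2.03-fold above their lowest, against 1.24-fold in Keluoxin, and the coefficient of variation was 23.4% against 8.80%. Model replicate 6 was the highest of the 12 and model replicate 2 the lowest. Whether the spread itself differs between the groups was not tested.

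**Figure D1:**
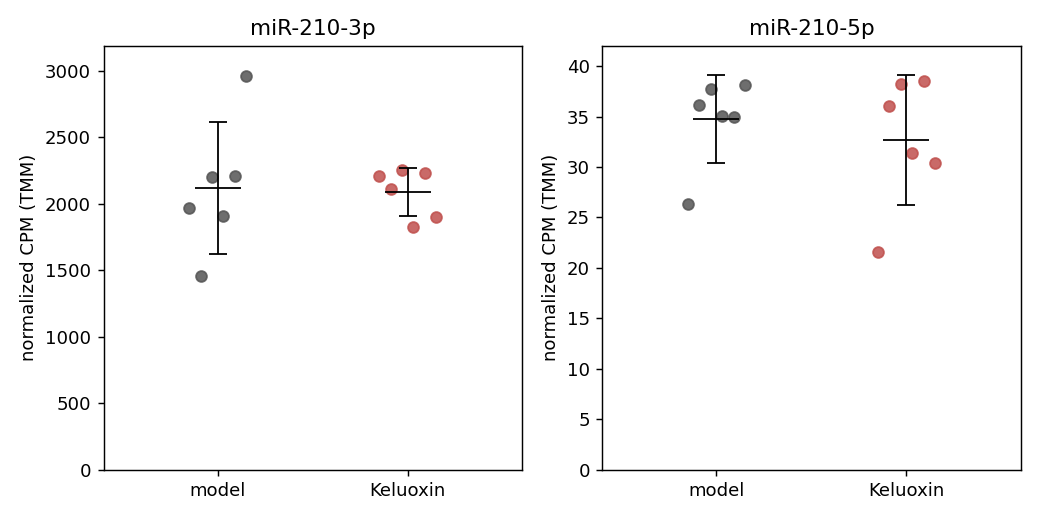
Normalized CPM (TMM-scaled counts per 1000000 reads) of miR-210-3p and miR-210-5p in the 6 model and 6 Keluoxin libraries; each point is a library, and the bar and whiskers are the mean and SD. The groups overlap for both arms, and the highest and the lowest miR-210-3p library are both model libraries (2962 and 1461 CPM).

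miR-210-5p, the opposite strand of the hairpin, was low in every library. It stood between 26.3 and 38.2 CPM in model (median 35.6, from 112 to 282 reads a library) and between 21.6 and 38.6 in Keluoxin (median 33.7, from 73 to 237 reads). The ranges overlapped. The means were 34.7 ± 4.35 and 32.7 ± 6.42 CPM, a log2 fold change of −0.09 (SE 0.16, edgeR adjusted p = 0.703) with a 95% interval from −0.45 to 0.27.

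The 3p arm supplied nearly all reads of the gene. Over all libraries 98.4% of mir-210 reads lay on the 3p side and 1.61% on the 5p side. The share on the 5p side was 1.68% ± 0.417 in model and 1.55% ± 0.286 in Keluoxin, and the difference did not pass an exact two-sided permutation test (adjusted p = 0.916 over 5 measures of the form of the reads). Among 212 precursors with at least 1000 reads, the median share of the lesser arm was 1.95%, and 98 had a smaller share than mir-210.

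Among 513 annotated arms tested, miR-210-3p ranked 42 by mean CPM and miR-210-5p 265; no length scaling is applied, since a read covers the whole mature miRNA. The next arms above were miR-7b-5p (2359 CPM) and miR-100-5p (2335), and the next below were miR-340-5p (1970) and miR-378a-3p (1908), against 2104 for miR-210-3p over all 12 libraries. The SDs within groups, from 119 to 619 CPM for these 5 arms, exceed or approach the gaps between neighbours, so their order is not resolved. Of the 4 neighbours, miR-378a-3p, made from an intron of a gene of mitochondrial metabolism, passed the test: it fell from 2391 ± 490 to 1426 ± 188 CPM (edgeR adjusted p = 0.00811).

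Other miRNAs linked to oxygen were described from a pair of lists. The first holds 13 miRNAs reported to respond to hypoxia, all of which were tested. 2 rose and 1 fell, against 4.09% of annotated arms called higher and 9.36% called lower; the median log2 fold change was −0.02, beside 0.03 over all arms and −0.12 over annotated arms. miR-27a-3p rose from 648 ± 83.3 to 859 ± 86.4 CPM (0.41 on the log2 scale, SE 0.11; adjusted p = 0.0246, edgeR). miR-181c-5p rose from 115 ± 10.2 to 157 ± 16.0 CPM (0.45, SE 0.10, adjusted p = 0.0163). miR-103-3p, known for lowering insulin sensitivity, fell from 2213 ± 348 to 1482 ± 283 CPM (−0.58, SE 0.15, adjusted p = 0.0215). These calls depend on settings. With upper quartile scaling the counts were 0 higher and 3 lower, with scaling to total reads 4 and 1, and with DESeq2 2 and 3. Without a filter on low counts they were 0 and 1, and without Keluoxin replicate 3 they were 0 and 3.

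The 3 most abundant members of this list had log2 fold changes near 0 or small, and none passed the test. miR-181a-5p held 39170 ± 2186 CPM in model against 38830 ± 2763 in Keluoxin (adjusted p = 0.910, edgeR), miR-26a-5p at 33160 ± 2958 and 37600 ± 3635 (adjusted p = 0.149), and miR-181b-5p at 14630 ± 1385 and 14430 ± 1509 (adjusted p = 0.897).

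The second list holds 10 miRNAs reported to act on hypoxia-inducible factors or the enzymes that control them. In edgeR 7 were tested and 0 passed, where 138 of 813 arms and 69 of 513 annotated arms did. At an unadjusted p under 0.05 the counts were 0 of 7, beside 281 of 813 arms and 159 of 513 annotated arms. DESeq2 called 0 of 8 members and 238 of 1306 arms. The median log2 fold change of the list was 0.01. miR-107-3p, also a member of the first list, held 287 ± 31.3 CPM in model against 290 ± 16.7 in Keluoxin (adjusted p = 0.919, edgeR). miR-20a-5p stood at 122 ± 27.9 and 106 ± 12.3 CPM (adjusted p = 0.373), and miR-130a-3p at 107 ± 37.4 and 86.3 ± 36.0 (adjusted p = 0.450). miR-18a-5p, miR-20b-5p and miR-429-3p stood below 1.6 CPM in every library and were not tested.

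**Figure D2:**
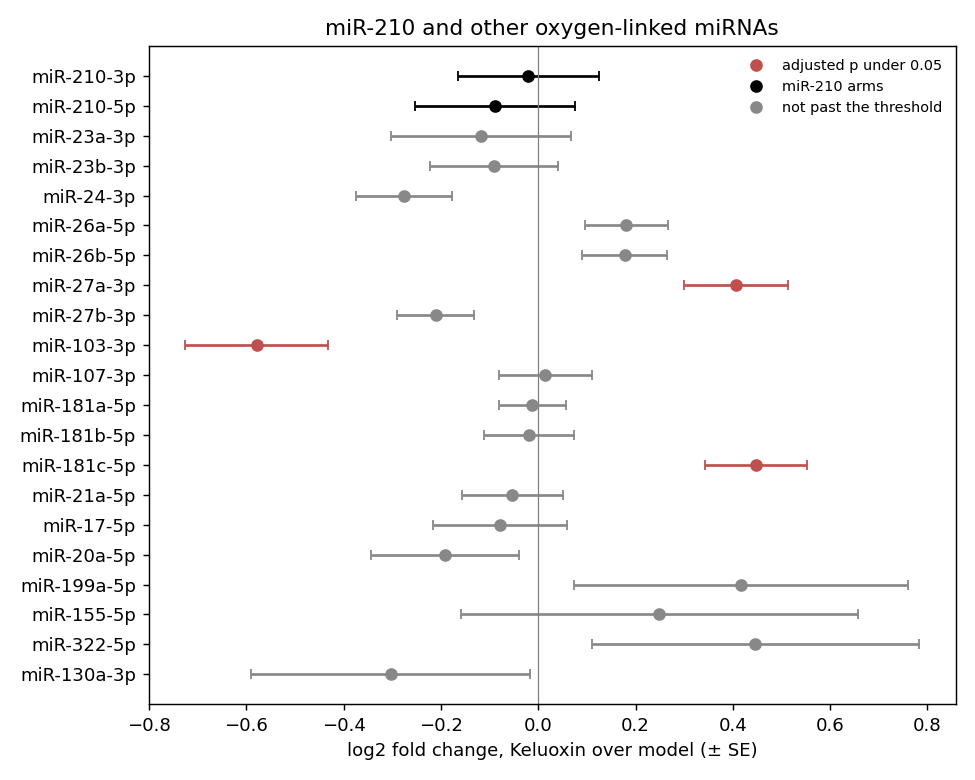
Log2 fold change, Keluoxin over model, with its SE for the 2 miR-210 arms and the tested members of both lists of oxygen-linked miRNAs. Both miR-210 arms lie within 1 SE of 0, and the arms in red (miR-27a-3p and miR-181c-5p higher, miR-103-3p lower) passed the test.

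Several miRNAs varied from library to library as miR-210-3p did. Likeness was measured as Pearson's r of log2 CPM, centred within each group, over the 12 libraries and 512 other annotated arms, whose median r was −0.03. These arms share the libraries and the scaling, so r is given as a description. The 5 most alike were miR-34b-5p (r = 0.849), miR-127-5p (0.832), miR-134-5p (0.827), miR-124-5p (0.789) and miR-101a-3p (0.788). Each of the 5 was higher in model replicate 6 than in model replicate 2, as miR-210-3p was. They were chosen by r over these same libraries, so this shared order follows largely from the choice. Without model replicate 6 the r of these arms, chosen with it included, ran from 0.670 to 0.899. One of the 5, miR-134-5p, fell between the groups, from 205 ± 23.7 to 151 ± 7.97 CPM (−0.44 on the log2 scale; adjusted p = 0.0162, edgeR). The least alike were miR-3074-5p and miR-3072-3p (r = −0.792 each) and miR-7033-5p (−0.715), with group means between 3.19 and 14.4 CPM. The hairpin's own 5p arm had r = 0.163 and ranked 163 of 512.

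The 5′ end of miR-210-3p, which sets its seed, was nearly fixed. Over all libraries 97.1% of 3p reads started at the RefSeq position and 2.35% began 1 base earlier. The most frequent earlier-starting read held 782 reads, 0.603% of the arm, and is shown with its extra first base in capitals.
3p read with earlier start: Actgtgcgtgtgacagcggctga

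Its seed would be CUGUGCG, which no mature miRNA of the RefSeq mouse table carries (0 of 1679). The share of reads at the RefSeq start was 96.96% ± 0.23 in model and 97.26% ± 0.22 in Keluoxin and did not pass the exact permutation test after adjustment (p = 0.0433, adjusted p = 0.108). Reads at that start with a differing base inside the seed made up 0.708% of the arm. On the 5p arm 99.9% of reads started at the RefSeq position. Among the reads counted as 3p, 38 reads of 15 nt, in 8 libraries, lay beyond the mature 3p arm.

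The 3′ end varied. Reads of 22 nt, the RefSeq length, made up 37.0% of the 3p arm, 23 nt 31.3% and 24 nt 22.9%. The mean length was 22.67 ± 0.07 nt in model and 22.67 ± 0.12 in Keluoxin (adjusted p = 0.916 by the exact permutation test), and the 22 nt share was 36.6% ± 1.19 and 36.8% ± 2.75 (adjusted p = 0.916). Over 306 arms of annotated and predicted precursors, limma called 6.86% for mean length. It called 37.6% for the share at their most frequent length and 4.25% for the share at their most frequent start. Smaller length classes moved: 21 nt reads rose from 2.39% ± 0.231 to 3.71% ± 0.814 and 23 nt reads fell from 32.5% ± 0.882 to 29.9% ± 0.923 (adjusted p = 0.00649 each, exact permutation test over 6 added measures, chosen after the data were seen). In both, the 6 Keluoxin libraries lay outside the model range; other arms were not measured for these lengths.

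More miR-210-3p reads carried a base that differs from the hairpin in Keluoxin than in model. The share stood between 64.5% and 68.6% in model (median 67.3%) and between 67.4% and 72.9% in Keluoxin (median 72.5%). Of the 6 Keluoxin libraries, 5 lay above every model library, and replicate 4 lay among them. The means were 66.8% ± 1.57 and 71.7% ± 2.10 (exact permutation test, p = 0.00649, adjusted p = 0.0325). In the same libraries all other counted reads moved in that direction too, from 40.7% ± 1.68 to 48.1% ± 2.51 (exact permutation p = 0.00216, the smallest the design allows). limma was run on the 306 arms, of annotated and predicted precursors, that held 100 reads or more in each library. Predicted arms can share reads with other arms, and so can annotated arms of like sequence, such as miR-199a-3p and miR-199b-3p. Counts of called arms can therefore hold the same molecules more than once. For the share with a differing base limma called 221 (72.2%), 208 of them higher (68.0%). The median difference was 6.38 points against 4.87 for miR-210-3p. In model, miR-210-3p ranked 65 of 306 by this share, and the median arm stood at 42.0%. On the 5p arm the share rose from 51.8% ± 3.85 to 58.9% ± 1.96 (adjusted p = 0.00866 by the exact permutation test, 5 of 6 Keluoxin libraries above all model libraries).

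The departures from the hairpin were concentrated in the last bases. Over all libraries 31.0% of 3p reads matched the hairpin throughout. Among the others, the departing base began at base 22 of the mature position in 24.4% of all 3p reads and at base 23 in 33.6%. Enzymes that add A or U to finished miRNAs are known, and the files do not tell such bases from errors of copying or sequencing. Reads were grouped by the first base that departs within the last 4 bases of the read, and the T in these DNA reads stands for U in the RNA. These measures, and those of the last base, were chosen after the data were seen.

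Ends that depart with A were the most common and were lower in Keluoxin. They stood between 25.4% and 30.7% of 3p reads in model (median 29.6%) and between 20.9% and 25.0% in Keluoxin (median 23.1%). All 6 Keluoxin libraries lay below all model libraries, and the mean fell from 28.8% ± 2.02 to 23.3% ± 1.497 (adjusted p = 0.00361 over 5 kinds of end by the exact permutation test). In limma over 306 arms the same share was called lower in 37 (12.1%), miR-210-3p among them (adjusted p = 0.00725), and in 118 arms it was above the model value. The difference of −5.53 points ranked 300 of 306 from the highest, where the median arm differed by −0.18 points. On the log2 odds scale, which allows for the level in model, it ranked 39 from the lowest.

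Ends that depart with G and with C were higher in Keluoxin. G ends rose from 11.6% ± 0.865 to 17.2% ± 2.19 and C ends from 3.57% ± 0.708 to 7.64% ± 0.858 (adjusted p = 0.00361 for each by the exact permutation test). All 6 Keluoxin libraries lay above all model libraries in both. Most other arms moved likewise: limma called G ends higher in 242 of 306 arms (79.1%) and C ends in 236 (77.1%). The median differences were 3.18 and 3.35 points against 5.58 and 4.07 for miR-210-3p, which ranked 24 for G and 125 for C from the highest. These medians include arms of predicted precursors, some with no C ends in either group, and were not taken over annotated arms alone. Among the annotated arms, those with a larger C difference in points than miR-210-3p outnumbered those with a smaller one. On the log2 odds scale the order turns for G, with 0.65 for miR-210-3p and 0.93 for the median arm (rank 218 of 306 from the highest), but not for C, with 1.17 and 0.93 (rank 90). Ends that depart with T stood at 20.6% ± 2.15 and 21.5% ± 0.948 (adjusted p = 0.511, where limma called 28.4% of arms), and differences elsewhere in the read at 2.24% ± 0.352 and 2.16% ± 0.997 (adjusted p = 0.855).

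**Figure D3:**
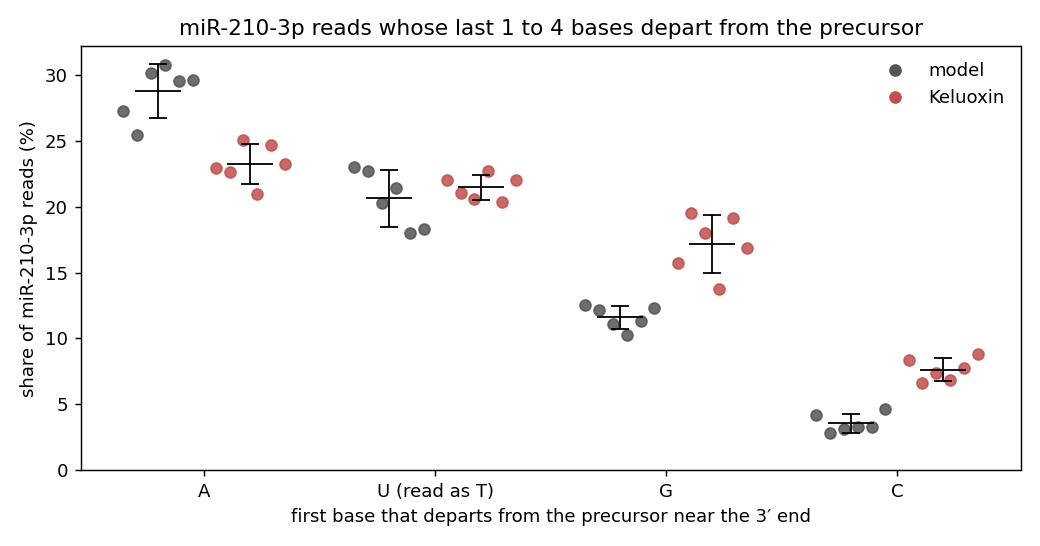
Share of miR-210-3p reads (%) whose last 1 to 4 bases depart from the hairpin, by the first departing base, in 6 model and 6 Keluoxin libraries; points are libraries, and the bar and whiskers are the mean and SD. A ends are lower and G and C ends higher in all 6 Keluoxin libraries than in any model library, while the U ends overlap.

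The last base of the read, encoded or not, is taken without comparing it to the hairpin. The reads counted are still those that had been aligned to mir-210 with 1 kind of difference at most. Their share was lower for A, as with the departing ends, and higher for C and, unlike the departing ends, for T. Reads ending in A stood between 48.6% and 54.1% in model (median 52.9%) and between 35.9% and 41.3% in Keluoxin (median 37.0%). The groups did not overlap, and the mean fell from 52.0% ± 2.00 to 37.6% ± 1.99 (adjusted p = 0.00289 over 4 bases by the exact permutation test). Reads ending in T rose from 33.1% ± 2.59 to 39.9% ± 0.622 and reads ending in C from 6.10% ± 1.14 to 11.1% ± 1.73 (adjusted p = 0.00289 each), again with no overlap. Reads ending in G rose from 8.86% ± 1.299 to 11.4% ± 1.76 (adjusted p = 0.00649 by the exact permutation test), while limma, which called G endings higher in 12.7% of the 306 arms, did not call this change (adjusted p = 0.0595).

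**Figure D4:**
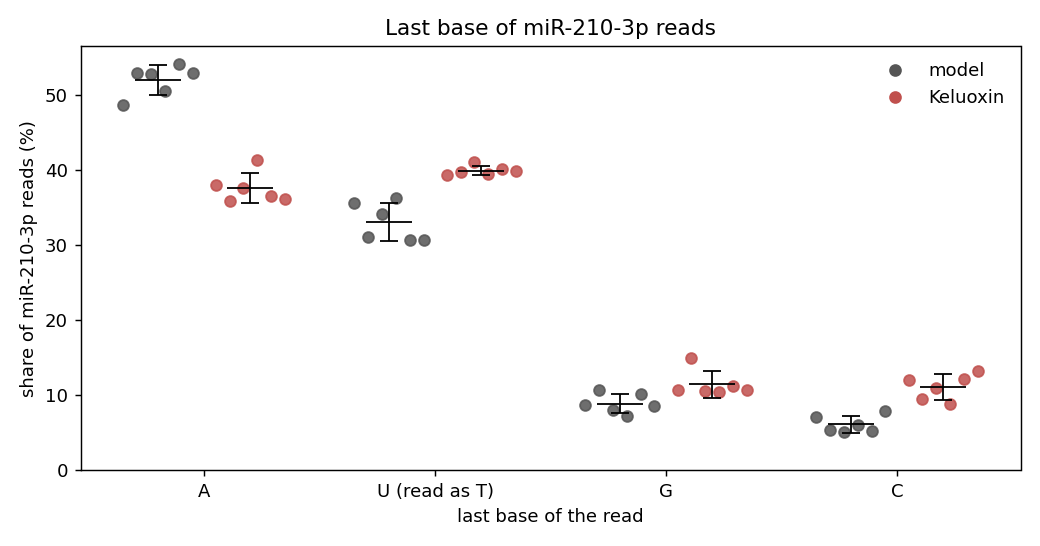
Share of miR-210-3p reads (%) by their last base, encoded or not, in 6 model and 6 Keluoxin libraries; points are libraries, and the bar and whiskers are the mean and SD. Reads ending in A make up 48.6% or more in every model library and 41.3% or less in every Keluoxin library.

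Reads ending in A were lower in many of the 306 arms, and miR-210-3p lay near the edge of that shift. limma called the share lower in 132 of 306 arms (43.1%) and higher in 4 (1.31%). The median arm differed by −2.36 points, and miR-210-3p by −14.42 points (adjusted p = 2.17e-05). This difference ranked 302 of 306 from the highest, and 12 from the lowest on the log2 odds scale; its share in model, 52.0%, ranked 28 against a median of 19.3%. For reads ending in T, 71 arms (23.2%) were called higher, and for C 136 (44.4%), miR-210-3p among both (limma adjusted p = 0.00442 and 0.00149). Whether miR-210-3p differs from other arms in these shifts was not tested.

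**Figure D5:**
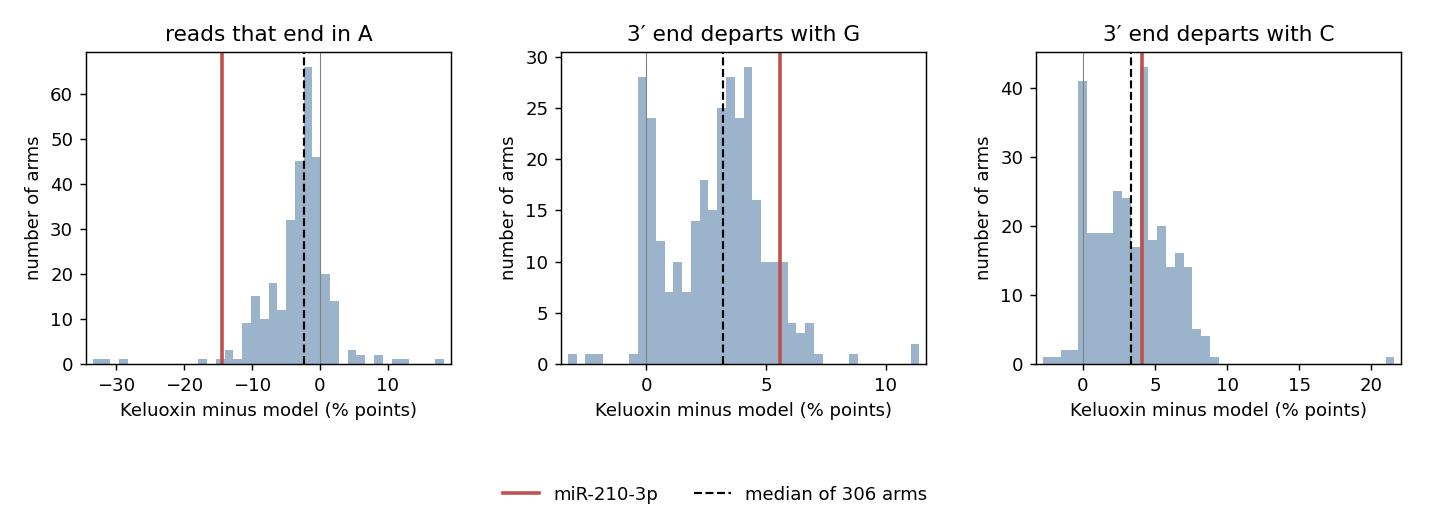
Differences, Keluoxin minus model in percentage points, for the share of reads ending in A, departing with G and departing with C. The 306 arms, of annotated and predicted precursors, held 100 reads or more in each library. Bars count arms, the red line is miR-210-3p and the dashed line the median arm. miR-210-3p lies far to the left for A (−14.42 points against −2.36). For G (5.58 against 3.18) and C (4.07 against 3.35) it lies closer to the median. For C the median is lowered by predicted arms, and among annotated arms more lay above miR-210-3p than below it. On the log2 odds scale miR-210-3p lies below the median arm for G.

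The named reads follow these ends. The RefSeq sequence, 3p read 1, which ends in an encoded A, held 21.8% ± 1.32 of the arm in model and 15.7% ± 1.22 in Keluoxin, below all model libraries in all 6 Keluoxin libraries. For the share of each arm's leading read limma called 97 of 306 arms lower (31.7%), miR-210-3p among them (adjusted p = 0.000162). 3p read 2, with its added A, held 15.9% ± 1.31 in model and 10.1% ± 0.447 in Keluoxin, again with no overlap. 3p read 3, in which T replaces the last A, held 8.03% ± 0.973 and 10.5% ± 1.04, and 3p read 5, which ends in an encoded T, 5.87% ± 0.464 and 7.13% ± 0.352; in both all 6 Keluoxin libraries lay above the model libraries. 3p read 4 held 8.07% ± 1.17 and 7.34% ± 0.964, and its ranges overlapped.

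Among 5p reads the picture was partly similar, at much lower depth. 5p read 2, the RefSeq sequence, held 20.6% ± 3.52 of the arm in model and 13.6% ± 1.15 in Keluoxin, with 5 of 6 Keluoxin libraries below all model libraries. 5p read 1, with an added T, held 22.6% ± 2.23 and 24.8% ± 2.59, and 5p read 3 held 13.8% ± 3.55 and 13.8% ± 2.11, with overlapping ranges in both. These shares were not tested.

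Among 3p reads that match the hairpin throughout, the 22 nt share did differ, while the mean length did not pass the test. Reads of 22 nt made up 66.3% ± 2.46 of them in model and 56.0% ± 1.36 in Keluoxin (adjusted p = 0.00866 by the exact permutation test), and no Keluoxin library reached the lowest model library. Reads of 23 nt made up 19.8% ± 1.94 and 27.0% ± 1.98, and reads of 21 nt 5.08% ± 0.447 and 7.05% ± 1.36. In both, all 6 Keluoxin libraries lay above the model libraries. The mean length of these matching reads differed by 0.105 nt, Keluoxin minus model (adjusted p = 0.136 by the exact permutation test). The test on the 22 nt share of all 3p reads, above, did not pass. Other arms were not measured for the lengths of their matching reads.

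Markers of other cell types also varied between the groups. The red blood cell list summed to between 53.2 and 72.9 CPM in model and between 52.4 and 719.8 in Keluoxin, and 1 of its 2 tested members, miR-451a-5p, rose, while miR-144-3p was at 0 in some model libraries. miR-122-5p of liver rose but stayed at 41.2 CPM or less. The endothelial pair summed to between 1587 and 2122 CPM and between 1099 and 1414. Of this pair miR-126a-3p fell, from 1652 ± 187 to 1064 ± 130 CPM, while miR-126a-5p stood at 172 ± 37.1 in model and 208 ± 32.5 in Keluoxin (adjusted p = 0.215, edgeR). The lists of pigment epithelium (9287 to 12130 and 10220 to 12060 CPM), mural cells (2467 to 4135 and 3218 to 6900), leukocytes (55.7 to 74.2 and 51.4 to 73.3) and muscle (294 to 426 and 282 to 1889) had tested members with edgeR adjusted p from 0.0986 to 0.635. miR-142a-3p and miR-223-3p of leukocytes were at 0 in some libraries of each group. Their part in the read ends and levels of miR-210 was not tested.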

How the data were processed

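Small RNAs of 12 retinal samples, 6 model and 6 Keluoxin, were made into libraries with the NEBNext kit and run on an Illumina NextSeq, per the labels' protocols. Tools named in the submitters' processing notes are Novoalign, Bowtie, cutadapt and bcl2fastq. Their roles, the genome build and the miRBase release were not stated in what was used here. A deposited table holds, per the file headers, each distinct read of 2 or more counts with its count, not normalized, its precursor, position and differing bases. A row held 1 kind of difference and 1 mismatch at most, so reads with more were not seen.

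Undivided counts were summed per arm by the side of the precursor middle. Levels were tested with edgeR 4.0.16 (TMM, filter on low counts, quasi-likelihood test, Benjamini-Hochberg adjustment over 813 arms). DESeq2 1.42.0 was an alternative. Shares of reads were tested by exact two-sided permutation, adjusted within families of 5, 5, 6 and 4 measures. They were also tested with limma 3.58.1 on log2 odds over 306 arms of annotated and predicted precursors. The tests were checked on simulated data. Sequences came from the files and RefSeq (GRCm38.p6); both mature arms matched. No pair of libraries was a copy of another.

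The gene and the lists were chosen with earlier results of these data known, although the rule that selects the rows uses the name alone. Named arms were both miR-210 arms, list members past the threshold and the 3 most abundant of each list, the 5 most and 3 least alike, the 2 neighbours on each side in level, and the 5 and 3 most frequent reads. Marker arms that passed the test, or that were at 0, were named after their values were seen.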

Additional observations from a re-analysis of the deposited data

Results flagged for a closer look

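Of 22 measures in 2 groups each, 6 had a library set apart from the other 5 of its group by Dixon's criterion at the 95% level; chance gives about 5% of groups. Model replicate 1 was the lowest model library in miR-210-5p (26.3 CPM) and in differences away from the ends of 3p reads (1.562%). Keluoxin replicate 1 was the lowest in the share of reads on the 5p arm (0.9694%). Keluoxin replicate 4 was the lowest in the share of 3p reads with a differing base (67.43%) and the highest in 21 nt reads (5.34%). Keluoxin replicate 2 was the highest in reads ending in G (14.98%).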

How the results depend on the processing

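The levels of both arms stayed short of the threshold in all 10 other settings and in each of the 12 fits that left out 1 library. Leaving out 1 library moved the log2 fold change of miR-210-3p between −0.13 and 0.10 (edgeR adjusted p from 0.515 to 0.989), and other settings between −0.28 and 0.16; for miR-210-5p the ranges were −0.23 to 0.01 and −0.36 to 0.09; scaling moved the median of all arms from −0.22 (upper quartile) to 0.22 (total reads), with miR-210-3p 0.05 to 0.06 below it. With upper quartile scaling 39.8% of called arms were higher, and with total reads 77.4%, against 53.6% in the reported fit. The count of called arms was 238 with DESeq2 and 76 with annotated precursors only. It ran from 72 to 245 when 1 library was left out: 245 without model replicate 1, 72 without 4, 85 without 3 and 90 without 5. Scaling to total reads and DESeq2 each gave 5 called members of the hypoxia-responsive list. The 22 nt share differed by −10.2 points among reads without a differing base. The cause of these changes was not tested, except that the last counts other reads.

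No pairing by replicate number was evident: the correlation of same-numbered libraries was 0.0365 to 0.236. For model replicate 2 the same-numbered Keluoxin library was the most alike, and these correlations cannot exclude a pairing. With the replicate number as a block, 135 arms were called, the miR-210-3p change was 0.01 (edgeR adjusted p = 0.967), and the differing-base difference of 4.87 points had an exact permutation adjusted p of 0.156. The A, G and C ends had 0.0521, the 21 and 23 nt shares and the 5p differing bases 0.0625, and the last bases 0.0313. With 6 blocks no p can fall below 0.03125 before adjustment, so these block tests could pass only where most measures of a family reached that floor, and they say little about stability. Each difference in read ends kept its side of the threshold without any 1 library. miR-210-5p rests on 73 to 282 reads a library.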
